A study of Homo sapiens with 21 samples.

Results

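The 10 genes described here make, move and sense bile acids: NR1H4, NR0B2, CYP7A1, CYP8B1, CYP7B1, FGF19, FGFR4, ABCB11, ABCB4 and SLC51A. They were taken as a list of symbols and matched to Ensembl gene IDs, and 10 of 10 were found among the 37637 features of the count table. Reads of poly(A)-selected RNA were counted per gene in the human hepatoma line HepG2, an established cell line, after 6 h in medium without serum that held caffeine at 0, 0.01, 0.1, 1, 10, 100 or 1000 µM. Caffeine, a methylxanthine, is best known as an antagonist of adenosine receptors. Each dose had 3 libraries, called biological replicates in the series' text, and there were 21 libraries in all. Caffeine was dissolved in the culture medium itself, so the 0 µM group received fresh medium without serum and no other solvent. The series' text names coumarin for the control in one place, while the label of each control sample gives caffeine at 0 µM. The sample labels were used. Which of the 10 genes are expressed in this line, and how they change with the dose of caffeine, are the questions asked of these data.

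Bile acids are made from cholesterol in hepatocytes. CYP7A1 starts the main route, CYP8B1 adds the hydroxyl group that makes cholic acid, and CYP7B1 belongs to an alternative route. The nuclear receptor FXR, encoded by NR1H4, is activated by bile acids. It raises NR0B2, a repressor also called SHP, and the hormone FGF19, which signals through FGFR4 and its coreceptor KLB, and both routes lower CYP7A1. FXR also raises exporters, among them the bile salt pump ABCB11, the phospholipid floppase ABCB4 and the basolateral carrier formed by SLC51A and SLC51B.

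The RefSeq table of promoters was used for 4 of the members (NR1H4, FGFR4, ABCB11 and SLC51A), and the promoters of the other members were not searched. The 250 bases before the RefSeq start are shown for NR1H4, the receptor whose RNA changed most clearly, and for ABCB11, a classic FXR target with few counts in these cells. They are read 5′ to 3′ on the strand of the gene in build GRCh38.p14. The first is chr12:100503110-100503359 on the plus strand, which lies within the longer NR1H4 gene model, and the second is chr2:169031325-169031574 on the minus strand. Capitals mark the 1 match to the motifs searched.
NR1H4: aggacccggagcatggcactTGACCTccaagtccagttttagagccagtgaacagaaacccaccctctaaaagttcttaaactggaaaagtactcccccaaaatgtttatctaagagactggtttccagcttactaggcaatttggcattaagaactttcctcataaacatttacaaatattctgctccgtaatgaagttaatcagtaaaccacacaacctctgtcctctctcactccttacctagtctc
ABCB11: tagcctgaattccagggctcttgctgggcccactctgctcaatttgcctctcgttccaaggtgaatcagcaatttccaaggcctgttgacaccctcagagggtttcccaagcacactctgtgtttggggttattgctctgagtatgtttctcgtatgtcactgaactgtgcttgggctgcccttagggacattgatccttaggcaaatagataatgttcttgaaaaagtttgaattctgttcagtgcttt
The motifs were searched on both strands. The nuclear receptor motif AGGTCA occurred once in the NR1H4 window, on the reverse strand from -230 to -225 relative to the start, and in 12.1% of the 35116 promoter windows of this length. It was not in the ABCB11 window. An inverted pair of exact AGGTCA motifs with 1 base between them, the arrangement that FXR and RXR prefer, occurred in 0 of the 35116 windows. Its absence here therefore says nothing about FXR sites that depart from these letters, and such sites were not searched. Neither window held the core letters of the dioxin response element (GCGTG, in 32.2% of windows) or of the cAMP response element (TGACG, in 21.2%). In the windows of the other 2 members searched, GCGTG occurred in 1 of the 2 FGFR4 windows, from -99 to -95 and, on the reverse strand, from -19 to -15. None of the motifs occurred in that of SLC51A. A match is a description of the letters only, and no match says only that these letters are not in the window.

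The libraries held between 28043623 and 40827833 counts (median 32497612), and mitochondrial genes took 4.95% to 14.2% of them. The library farthest from its group was 0.01 µM replicate 1, with a root mean square deviation of 0.493 on the log2 scale against a median of 0.300 over the libraries. It also had the lowest total and a mitochondrial share of 11.7%. The hepatocyte gene ALB lay between 4745 and 7145 CPM in the 21 libraries and HNF4A between 312 and 397 CPM. Of the 8 hepatocyte markers, all present in every library, 3 had means at 1000 µM far from those at 0 µM. AFP averaged 3497 ± 248 CPM (SD, n = 3) in the controls and 2163 ± 184 CPM at 1000 µM, APOA1 1740 ± 325 and 847 ± 189 CPM, and APOB 5190 ± 88.8 and 7649 ± 819 CPM. The part of these shifts in the results below was not tested. The markers of other cells, PTPRC, COL1A1, LUM and KRT5, summed to at most 6 counts in a library, with 0 to 4 counts at 0 µM and 0 to 6 at 1000 µM. CPM is the usual read count normalised to library size, here over the reads of the tested features and after TMM scaling. In bulk RNA, fewer cells expressing a gene and less RNA per cell cannot be told apart.

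Expression divided the list sharply. In levels per kilobase of exon, averaged over the 21 libraries, FGFR4 (81.0 CPM per kb) and NR0B2 (77.4) stood at the top, and their ranges over the libraries overlapped (57.2 to 93.3 and 48.0 to 109). Their order turned with the dose, from 91.3 ± 1.81 for FGFR4 and 82.7 ± 3.86 for NR0B2 at 0 µM to 73.6 ± 9.93 and 97.7 ± 9.86 CPM per kb at 1000 µM (SD, n = 3). NR1H4 came next at 3.39 CPM per kb, with a range of 1.83 to 4.11, followed by SLC51A at 1.38 (1.06 to 1.72) and ABCB4 at 1.04 (0.853 to 1.19), whose ranges also overlapped. CYP8B1 was at 0.521 CPM per kb, from 0.221 to 0.809. CYP7A1 (0.0324), FGF19 (0.0313), ABCB11 (0.0102) and CYP7B1 (0.00122) had at most 8 counts in any library. The filter on low counts therefore passed 6 of the 10 members, and the other 4 are described by their counts. Receptors and the repressor of the pathway were thus present in these cells, while the enzyme that starts the main route and the bile salt pump were close to the limit of detection.

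Each dose was compared with 0 µM to see at which dose the members changed. At 1000 µM, 3 of the 6 tested members had an adjusted p under 0.05 (edgeR's quasi-likelihood test, Benjamini-Hochberg over all tested features), and all 3 were lower: NR1H4, CYP8B1 and SLC51A. At this dose 41.2% of the 17468 tested features passed and 20.6% passed in each direction, higher and lower, so a count of 3 in 6 is near the background. The median log2 fold change of the 6 members was -0.43 and that of all tested features -0.03. At each of 0.01, 0.1, 1, 10 and 100 µM 0 of the 6 passed, with 1, 0, 0, 1 and 1 members at an unadjusted p under 0.05, and DESeq2 also called 0 at each of these doses. Of all features 4.95%, 0%, 0%, 22.0% and 6.02% passed at these doses, and 26.1%, 15.2%, 22.8%, 35.9% and 25.6% met the unadjusted limit. When the dose was ranked from 0 to 6 and a slope fitted on that dose step, the same 3 genes had a falling slope, against 29.0% of all features with a slope and 14.5% with a falling one. NR1H4 and CYP8B1 also differed among the 7 groups, as 28.1% of all features did.

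**Figure D1:**
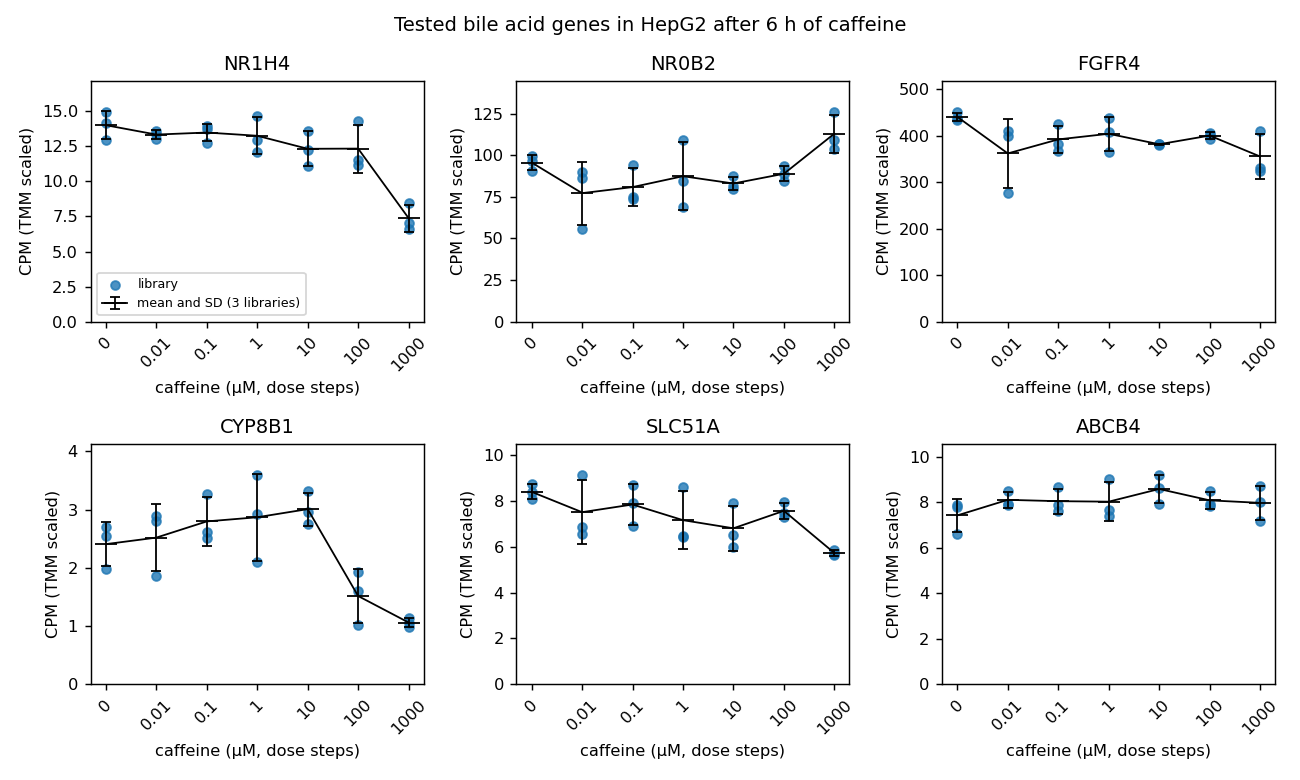
Normalised read counts (CPM, vertical axes from 0) of the 6 tested members against the caffeine dose in steps from 0 to 1000 µM. Points are single libraries, and black marks give the mean and SD of 3 libraries. NR1H4 and SLC51A are lowest at 1000 µM in all 3 libraries, CYP8B1 is low at both 100 and 1000 µM, and NR0B2 is highest at 1000 µM on average.

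NR1H4 (ENSG00000012504.15, chromosome 12, 100473708 to 100564413, plus strand of GRCh38 in GENCODE 29), the gene of FXR, fell at 1000 µM, and it passed the test at no lower dose. Its level was 14.9, 13.0 and 14.1 CPM in the 3 libraries at 0 µM. It was 13.4, 13.6 and 13.0 CPM at 0.01 µM, 13.8, 12.8 and 13.9 at 0.1 µM, and 14.7, 13.0 and 12.1 at 1 µM. At 10 µM it was 11.1, 12.2 and 13.6 CPM, at 100 µM 14.3, 11.6 and 11.2, and at 1000 µM 6.63, 8.47 and 7.04. The 3 libraries at 1000 µM lay below each of the other 18, and the groups from 0 to 100 µM overlapped one another. The mean went from 14.01 ± 0.979 CPM (SD, n = 3) at 0 µM to 7.38 ± 0.967 CPM at 1000 µM, or 0.528 of the control level. The log2 fold change was -0.92 ± 0.12 (SE) with an adjusted p of 1.46e-05 in edgeR's quasi-likelihood test. The 1000 µM group was also lower than each of the other doses in the same fit, with log2 differences from -0.74 against 10 and 100 µM to -0.87 against 0.1 µM and adjusted p of at most 0.00043. Without the 1000 µM libraries the slope on the dose step was -0.04 ± 0.02 and did not pass (adjusted p 0.191, edgeR).

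The 5 genes whose log2 CPM followed NR1H4 most closely over the 21 libraries, among 14251 genes with a symbol, were DDC (Pearson r 0.955), CDC6 (0.952), SFXN2 (0.941), GINS1 (0.940) and DDB2 (0.938). All were lower at 1000 than at 0 µM: DDC, the enzyme aromatic L-amino acid decarboxylase, went from 40.3 to 21.9 CPM, and DDB2, a DNA damage recognition factor, from 66.1 to 40.7. CDC6 and GINS1, which act at DNA replication origins, went from 84.8 to 56.4 CPM and from 52.5 to 33.5 CPM, and the mitochondrial carrier SFXN2 from 30.7 to 19.0 CPM. The libraries of a dose share that dose, so these correlations describe the order of the libraries and carry no test.

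NR0B2 (ENSG00000131910.5, chromosome 1, 26911489 to 26913966, minus strand), the repressor SHP that FXR induces, showed no fall at 1000 µM, where all 3 of its libraries lay above the controls, as for 25.9% of all features. Its level was 99.4, 96.8 and 90.7 CPM at 0 µM, and 55.4, 86.2 and 90.0 CPM at 0.01 µM. It was 73.7, 74.6 and 94.2 CPM at 0.1 µM, 68.6, 84.6 and 109 at 1 µM, and 79.8, 87.5 and 81.6 at 10 µM. At 100 µM it was 88.8, 93.4 and 84.4 CPM, and at 1000 µM 126, 109 and 104. The means at 1000 and 0 µM were 113 ± 11.4 and 95.6 ± 4.46 CPM (SD, n = 3). This difference did not pass (log2 fold change 0.24 ± 0.16 SE, 95% interval -0.10 to 0.59, adjusted p 0.254 in edgeR's test). Against the pooled libraries at 0.01, 0.1 and 1 µM NR0B2 was higher at 1000 µM, by 0.47 ± 0.13 (adjusted p 0.0114, edgeR), where 30.1% of all features passed, although 1 library at 1 µM overlapped the 1000 µM group. Between 1000 µM and the single doses of 0.01, 0.1, 1 and 10 µM, 18.5%, 24.3%, 22.3% and 18.4% of all features passed. NR0B2 passed for 0.01 µM (0.55, adjusted p 0.0267) and 0.1 µM (0.48, adjusted p 0.0400), and not for 1, 10 or 100 µM (adjusted p 0.113, 0.0687 and 0.168, edgeR). The call of NR0B2 thus depended on the reference group. On the linear dose its slope passed (adjusted p 0.0131), and on the dose step it did not (adjusted p 0.201, edgeR).

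FGFR4 (ENSG00000160867.15, chromosome 5, 177086886 to 177098144, plus strand), the receptor of FGF19, ran from 276 to 450.3 CPM over the 21 libraries, with a median count of 13385. At 0 µM it was 433, 438 and 450.3 CPM, and at 1000 µM 411, 325 and 331. The lowest value, 276 CPM, was that of 0.01 µM replicate 1, while the other 2 libraries of that dose were at 399.7 and 410.0 CPM. All 3 libraries at 1000 µM lay below the 3 controls, as for 27.3% of all features, and so did all 3 at 0.01, 0.1, 10 and 100 µM. The share of all features at these lower doses is not given, and FGFR4 passed at none of them (adjusted p 0.152, 0.538, 0.237 and 0.508, edgeR). At 1000 µM the log2 fold change was -0.31 ± 0.12 (SE), and its adjusted p of 0.0504 in edgeR's test was just outside the threshold. Without 0.01 µM replicate 1 the adjusted p was 0.00833, with nearly the same fold change, and without 1000 µM replicate 1 it was 0.0194. DESeq2 gave 0.0492 and upper quartile scaling 0.0246, while no filter gave 0.149 and the replicate number as a block 0.0632. Over the 21 fits that left out 1 library the adjusted p ran from 0.00833 to 0.194, so the call of FGFR4 was not stable. Against the pooled 0.01, 0.1 and 1 µM libraries the difference was -0.12 (95% interval -0.33 to 0.09) and did not pass (adjusted p 0.401, edgeR). In the 6 libraries of 0 and 10 µM alone FGFR4 was the 1 member called at 10 µM.

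FGF19, the ligand of FGFR4, had 2 counts in each of the 3 control libraries and 8, 7 and 7 at 1000 µM. In the 15 libraries of the other doses it had from 0 to 5 counts. The 3 libraries at 1000 µM were therefore the 3 highest of the 21. The summed counts at 1000 and 0 µM, 22 and 6, give a ratio of 3.19 with an exact 95% interval of 1.25 to 9.60 that covers counting error only. With no filter edgeR gave an unadjusted p of 0.0394 and an adjusted p of 0.155, so a change of FGF19 was not shown between these groups at this depth, although its slope on the dose step passed in the fit without a filter.

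CYP8B1 (ENSG00000180432.5, chromosome 3, 42856005 to 42876165, minus strand), the sterol 12-alpha-hydroxylase, was the only synthesis enzyme among the members with enough reads to be tested, and it had the largest fold change of the 6. It was 2.54, 2.70 and 1.98 CPM at 0 µM, and 1.86, 2.89 and 2.81 at 0.01 µM. At 0.1 µM it was 2.62, 3.27 and 2.51 CPM, at 1 µM 2.10, 2.92 and 3.59, and at 10 µM 3.31, 2.75 and 2.96. It was 1.02, 1.60 and 1.93 CPM at 100 µM and 1.14, 1.06 and 0.983 at 1000 µM. Both of the highest doses lay below the controls in 3 of 3 libraries, and the 10 µM libraries lay above them. At 1000 µM 27.3% of all features lay below in this way, and the shares at 10 and 100 µM are not given. At 1000 µM the log2 fold change was -1.18 ± 0.25 (SE, adjusted p 0.00101 in edgeR's test), from 62 to 84 counts in the controls to 31 to 43. Against 0.01, 0.1, 1 and 10 µM the difference at 1000 µM ran from -1.25 to -1.499 and passed each time, with adjusted p of at most 0.00157. At 100 µM CYP8B1 was at -0.67 ± 0.24 against 0 µM (adjusted p 0.0935) and at -0.85 ± 0.20 against the pooled 0.01, 0.1 and 1 µM libraries (adjusted p 0.0837, edgeR), where 0.469% of all features passed, and CYP8B1 passed in neither. The difference between 1000 and 100 µM did not pass either (-0.51, 95% interval -1.03 to 0.01, adjusted p 0.181, edgeR), so 100 µM was not separated from the control or from 1000 µM. At 10 µM the log2 fold change was 0.32 ± 0.23 (adjusted p 0.339, edgeR). The exons of CYP8B1 share 142 bp with ACKR2 on the opposite strand, and strand use in the counting is not stated. ACKR2 had 1.504 ± 0.135 CPM in the controls against 1.20 ± 0.326 CPM at 1000 µM (log2 fold change -0.33) and did not pass (adjusted p 0.200, edgeR). Against other references ACKR2 did pass as lower at 1000 µM: against the pooled 0.01, 0.1 and 1 µM libraries (-0.51, adjusted p 0.0252), 0.01 µM (-0.59, adjusted p 0.0463) and 10 µM (-0.81, adjusted p 0.00765, edgeR). Like CYP8B1 it was highest on average at 10 µM (2.10 ± 0.257 CPM), where its log2 fold change against 0 µM was 0.48 (adjusted p 0.0838), and it differed among the 7 groups (adjusted p 0.0484, edgeR). The 2 genes thus shared part of their pattern over the doses. The part of ACKR2 reads in the CYP8B1 counts was not tested.

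CYP7A1, the rate-limiting enzyme of the main route, had 1 to 7 counts per library. Its sum over 3 libraries was 10 at 0 µM, between 9 and 12 at the doses from 0.01 to 100 µM, and 4 at 1000 µM. The ratio of 1000 to 0 µM was 0.348, with an exact 95% interval of 0.0796 to 1.20, so no difference was detectable at this depth. CYP7B1 had 0 counts in 20 of 21 libraries and 2 in 1 library at 100 µM. A count of 0 allows up to 3 counts, or 0.0735 to 0.107 CPM depending on the library, and this limit covers counting error only. The promoters of CYP7A1 and CYP7B1 were left out of the motif search.

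SLC51A (ENSG00000163959.10, chromosome 3, 196211487 to 196243178, plus strand), a subunit of the basolateral bile acid carrier, fell at 1000 µM to 0.683 of the control level. It was 8.36, 8.72 and 8.07 CPM at 0 µM, and 9.12, 6.84 and 6.55 at 0.01 µM. At 0.1 µM it was 7.91, 6.90 and 8.70 CPM, at 1 µM 8.61, 6.45 and 6.40, and at 10 µM 5.98, 6.52 and 7.90. It was 7.28, 7.94 and 7.46 CPM at 100 µM and 5.63, 5.86 and 5.67 at 1000 µM. The 3 libraries at 1000 µM were the lowest of the 21, and 27.3% of all features lay below the controls at this dose. The libraries at 10 and 100 µM also lay below the 3 controls, and SLC51A passed at neither (adjusted p 0.138 and 0.541, edgeR). The share of all features at these 2 doses is not given. The log2 fold change at 1000 µM was -0.55 ± 0.14 (SE, adjusted p 0.00543 in edgeR's test). Against the pooled 0.01, 0.1 and 1 µM libraries it was -0.39 ± 0.12 (adjusted p 0.0201, edgeR). Against single doses SLC51A passed for 0.1 µM (adjusted p 0.0286), and not for 0.01, 1, 10 or 100 µM (adjusted p 0.0692, 0.114, 0.247 and 0.0685, edgeR). Its exons share 389 bp with PCYT1A on the opposite strand, a gene about an order of magnitude more abundant in CPM (84.6 ± 1.28 at 0 µM and 90.1 ± 1.89 at 1000 µM, SD, n = 3), so the SLC51A counts are uncertain. PCYT1A itself did not pass (log2 fold change 0.09, adjusted p 0.284, edgeR).

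ABCB4 (ENSG00000005471.17, chromosome 7, 87401697 to 87480435, minus strand), which moves phosphatidylcholine into bile, stayed between 6.59 and 9.19 CPM in the 21 libraries. At 0 µM it was 6.59, 7.89 and 7.78 CPM and at 1000 µM 8.71, 8.003 and 7.20, and the groups overlapped. Its log2 fold change at 1000 µM was 0.10 with a 95% interval of -0.12 to 0.33 (adjusted p 0.467, edgeR), and its sign turned against the pooled 0.01, 0.1 and 1 µM libraries (-0.02). Its close paralog ABCB1, the multidrug transporter, was far more abundant and rose from 112 ± 3.82 to 157 ± 8.01 CPM (SD, n = 3), a log2 fold change of 0.48 (adjusted p 0.00111, edgeR). How the counting treated reads that match both genes is not stated, and their part in the ABCB4 counts was not tested.

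ABCB11, the bile salt export pump, had 1, 8 and 3 counts at 0 µM and 1, 0 and 0 at 1000 µM. The sums of 12 and 1 give a ratio of 0.0724 with an exact 95% interval of 0.00169 to 0.489, covering counting error only. The 10 µM group was as low, with 0, 0 and 1 counts, while the groups at 0.01 and 1 µM had sums of 13 and 14 and 100 µM had 6. The low counts therefore did not follow the order of the doses. With no filter edgeR gave an adjusted p of 0.0352 at 1000 µM.

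**Figure D2:**
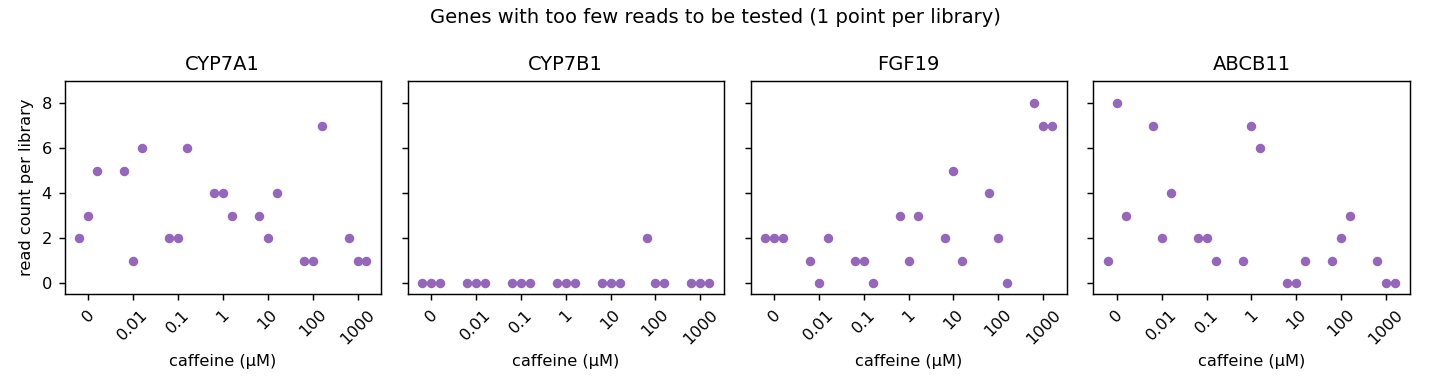
Read counts per library (vertical axis) of the 4 members with too few reads to be tested, against the caffeine dose in µM, with 1 point per library and 3 libraries per dose. FGF19 has 7 or 8 counts in the 3 libraries at 1000 µM and at most 5 elsewhere, and ABCB11 has at most 1 count at 10 and 1000 µM.

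**Figure D3:**
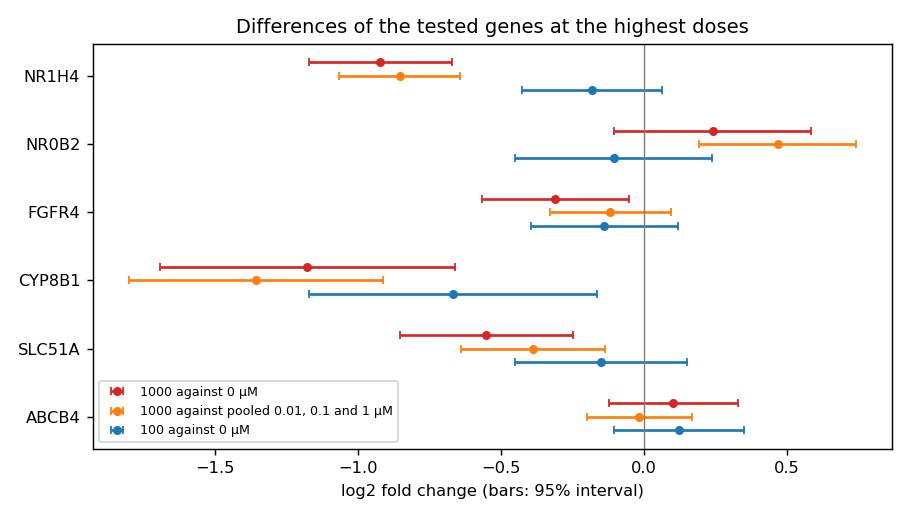
Log2 fold changes (horizontal axis) of the 6 tested members, with 95% intervals, for 1000 against 0 µM, 1000 against the pooled 0.01, 0.1 and 1 µM libraries, and 100 against 0 µM. NR1H4, CYP8B1 and SLC51A lie below 0 for both references at 1000 µM, and at 1000 µM NR0B2 lies to the right of 0, with an interval that excludes 0 only for the pooled reference, while at 100 µM it lies left of 0 with an interval that includes it.

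In the comparison of 1000 with 100 µM, NR1H4 was the 1 member that passed (-0.74 ± 0.12, adjusted p 0.00043, edgeR), where 14.7% of all features passed. Against the pooled 0.01, 0.1 and 1 µM libraries 4 members passed, NR1H4, CYP8B1 and SLC51A as lower and NR0B2 as higher, where 30.1% of all features passed. The comparisons of the doses with 0 µM share their 3 control libraries. Counting by libraries, the 1000 µM group lay entirely below the controls for 4 of the 6 members and entirely above them for 1, where 27.3% and 25.9% of all features did so. The slopes depended on the top dose: on the dose step NR1H4 fell by 0.10 per step, CYP8B1 by 0.16 and SLC51A by 0.06 on the log2 scale (adjusted p 0.00442, 0.0307 and 0.0229, edgeR). Without any 1 of the 3 libraries at 1000 µM, that is without replicate 1, 2 or 3, only NR1H4 of the 3 still passed, and the count of members with a slope was 1. CYP8B1 also lost its slope without 100 µM replicate 1 (adjusted p 0.0524) and SLC51A without 0 µM replicate 2 (adjusted p 0.0553, edgeR), and both lost it with no filter on low counts (adjusted p 0.0588 and 0.0889). Without the 0 µM libraries SLC51A lost its slope (adjusted p 0.166) and NR0B2 gained a rising one (0.09 per step, adjusted p 0.0486, edgeR). At 1000 µM against 0 µM all 3 genes remained past the threshold in each of the 21 fits that left out 1 library.

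A wider list of 52 further bile acid genes was examined for the rest of the pathway, and 46 of them had enough reads. At 1000 µM 9 passed as higher and 17 as lower, against 20.6% of all features in each direction, and their median log2 fold change was -0.21, beside -0.03 for all tested features. At 0.01, 0.1, 1, 10 and 100 µM 3, 0, 0, 10 and 4 of the 46 passed in edgeR's test, where 4.95%, 0%, 0%, 22.0% and 6.02% of all features did. An unadjusted p under 0.05 was found for 13, 5, 10, 22 and 20 of them, beside 26.1%, 15.2%, 22.8%, 35.9% and 25.6% of all features. Against the pooled 0.01, 0.1 and 1 µM libraries 7 were higher and 15 lower at 1000 µM, together 22 of 46, where 30.1% of all features passed. Of the 2 tested genes of sulfation and glucuronidation, SULT2A1 was lower at 1000 than at 0 µM (62.6 ± 5.02 and 37.0 ± 5.13 CPM, log2 fold change -0.76). UGT2B4 did not pass in that comparison.

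Of the 11 tested synthesis enzymes 5 were lower at 1000 µM, 1 was higher and 5 did not pass, where 41.2% of all features passed, 20.6% in each direction. AKR1D1, the reductase that saturates the sterol ring, fell from 13.96 ± 0.164 to 7.01 ± 1.35 CPM (SD, n = 3), a log2 fold change of -0.99. HSD3B7, which acts early after the first hydroxylation, fell from 117 ± 4.44 to 60.7 ± 7.72 CPM (-0.95), and SLC27A5, which links bile acids to coenzyme A, from 15.6 ± 3.68 to 7.95 ± 0.932 CPM (-0.97). All 3 of these genes were also lower at 1000 µM than in the pooled 0.01, 0.1 and 1 µM libraries (adjusted p 7.63e-07, 0.000104 and 0.0117, edgeR). HSD3B7 and SLC27A5 share exon sequence with other genes, which leaves their counts uncertain. CYP27A1, which starts the alternative route, had 151 ± 11.7 CPM in the controls against 138 ± 9.40 CPM at 1000 µM (-0.12, adjusted p 0.306, edgeR). CYP46A1 and CH25H had at most 4 and 0 counts per library and were not tested.

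Among transporters, 2 of 7 tested genes were higher at 1000 µM and 3 were lower, beside 20.6% of all features in each direction. ABCC2, the canalicular exporter of conjugated anions, rose from 661 ± 53.9 to 1254 ± 137 CPM (SD, n = 3), or 0.92 ± 0.16 on the log2 scale (SE; edgeR's adjusted p was 0.00018). It was also higher at 1000 than at 100 µM (0.82, adjusted p 0.00191, edgeR). SLC51B, the partner subunit of SLC51A, fell from 9.73 ± 0.918 to 5.79 ± 0.907 CPM (-0.75, adjusted p 0.00243). SLC51B averaged 6.57 ± 1.94 CPM at 0.01 µM, while 10 µM gave 5.62 ± 0.224 CPM, and against the pooled 0.01, 0.1 and 1 µM libraries it did not pass at 1000 µM (-0.19, adjusted p 0.345, edgeR). Its exons share 60 bp with RASL12 on the opposite strand. The uptake carrier SLC10A1 had 0 to 4 counts in each library, SLCO1B1 0 to 3 and SLCO1B3 0 to 8, so these uptake genes were not tested.

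Of the 18 tested receptors and cofactors 6 were higher at 1000 µM and 1 was lower, again beside 20.6% of all features each way. The coactivator PPARGC1A rose from 7.36 ± 0.578 to 15.7 ± 2.82 CPM (SD, n = 3; log2 fold change 1.09), the deacetylase SIRT1 from 22.7 ± 2.13 to 40.6 ± 7.36 CPM (0.84), and the corepressor NCOR1 from 102 ± 6.07 to 169.7 ± 14.5 CPM (0.74). PPARGC1A and SIRT1 also passed against the pooled 0.01, 0.1 and 1 µM libraries (adjusted p 0.000414 and 0.000433, edgeR), and NCOR1 did not (0.20, adjusted p 0.208). The bile acid receptor S1PR2 was lower at 1000 than at 0 µM (2.71 ± 0.156 and 1.51 ± 0.0940 CPM, log2 fold change -0.84), and did not pass against the pooled doses (adjusted p 0.226, edgeR). NCOR1 and S1PR2 share exon sequence with other genes, which leaves their counts uncertain. RXRA, a partner of FXR on DNA, had 68.2 ± 5.94 CPM in the controls against 64.03 ± 6.53 CPM at 1000 µM (-0.09, adjusted p 0.427). RXRB, the other RXR gene of the list, was among the 6 higher genes, with 15.5 ± 0.260 and 24.2 ± 3.13 CPM. Its exons share 244 bp with SLC39A7 on the opposite strand. KLB, the coreceptor of FGFR4, was at 39.7 ± 1.38 and 38.3 ± 2.25 CPM (-0.05, adjusted p 0.762). HNF4A, a regulator of CYP7A1 and CYP8B1 in liver, was at 327 ± 17.3 and 371 ± 22.6 CPM (0.18, adjusted p 0.0570, edgeR). HNF4A passed as higher at 10 µM (0.22, adjusted p 0.0401) and for a rising slope on the dose step (0.03 per step, adjusted p 0.0228, edgeR).

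Of 8 further genes known as FXR targets, 7 were lower at 1000 µM than at 0 µM and 0 were higher, in edgeR's test, while 20.6% of all features were lower and 20.6% higher. The 7 were SDC1, a heparan sulfate proteoglycan, APOC2, an activator of lipoprotein lipase, the fibrinogen chains FGA, FGB and FGG, FETUB, a liver secreted protein, and PLTP, which transfers phospholipids between lipoproteins. Their log2 fold changes ran from -0.80 for SDC1 to -0.33 for FGB, and the median over the 8 genes was -0.55. KNG1, the kininogen gene, was the exception and was singled out after its value was seen (-0.12, adjusted p 0.677, edgeR). At 1000 against 100 µM 1 of the 8 passed, as lower, where 14.7% of all features passed. All 7 also passed as lower against the pooled 0.01, 0.1 and 1 µM libraries, where 30.1% of all features passed in either direction. FGA, FGB and FGG lie close together on chromosome 4. APOC2 shares 729 of its 1316 exon bp with the gene APOC4-APOC2 on the same strand. PLTP, FETUB and KNG1 share exon sequence with genes on the opposite strand. The counts of these 4 genes are therefore uncertain. The FXR targets named at the start are outside this group and did not all fall at 1000 µM. SLC51A and SLC51B were lower than at 0 µM, while NR0B2 (0.24) and ABCB4 (0.10) did not pass. FGF19 and ABCB11 had too few reads. The part of NR1H4 in these changes was not tested.

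**Figure D4:**
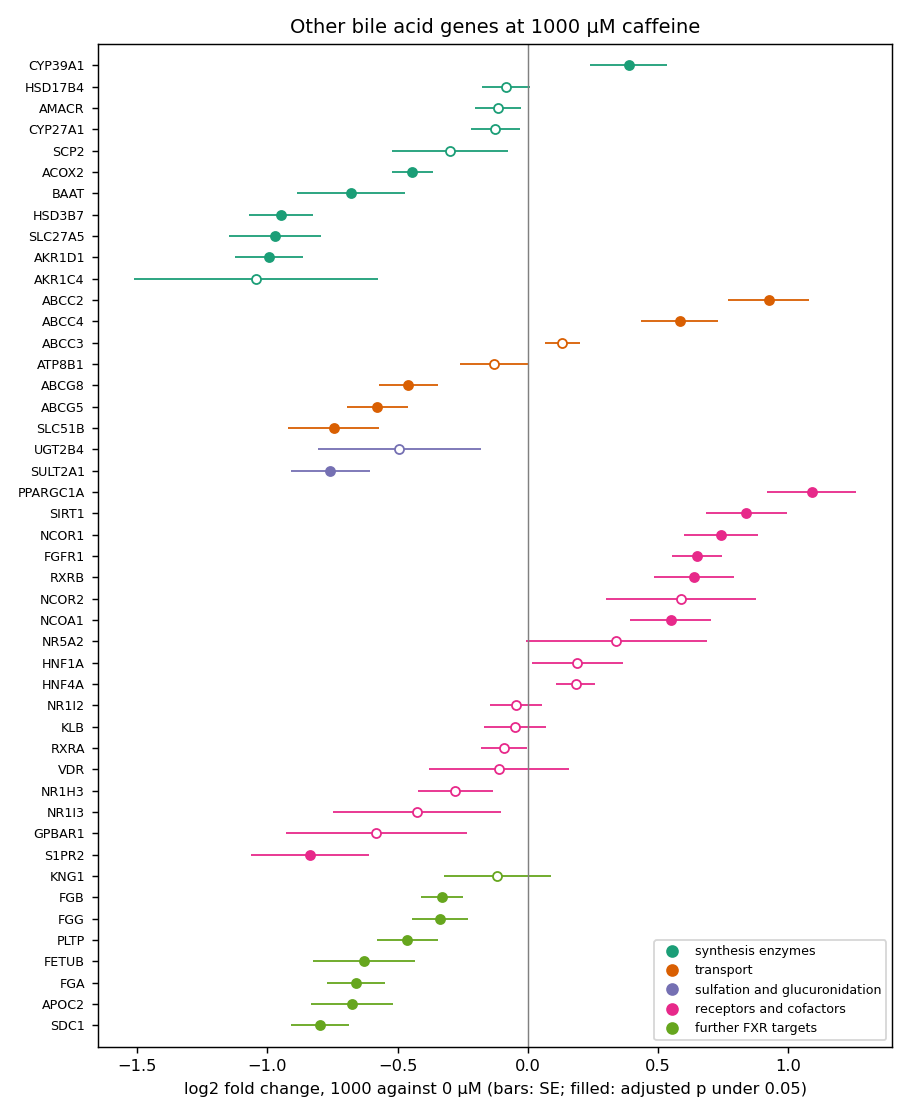
Log2 fold change at 1000 against 0 µM (horizontal axis, bars give the SE) of the 46 tested genes of the wider bile acid list, grouped by role, with filled points for an adjusted p under 0.05 in edgeR's test. All 8 further FXR targets lie below 0, and 6 of the 18 receptors and cofactors are filled on the right side.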

How the data were processed

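The authors deposited raw read counts for each gene, as whole numbers without normalization, in 1 table. The submitters' processing notes name HISAT2, DESeq2 and GRCh38, with no role. The counting program, annotation and strand setting are not given in the sources used here. The table has 42 sample columns. In 21 of them the name begins with 6, read as the time in h, and these were matched to the sample labels by dose and replicate number. The other 21 were not used. Symbols were looked up by Ensembl ID with the version removed (24843 of 32937 IDs matched). Coordinates and exon lengths are from GENCODE 29, and promoter sequences from RefSeq (GRCh38.p14).

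edgeR 4.0.16 (R 4.3.3) was fitted to all 21 libraries with TMM scaling and the expression filter at a minimum count of 10, which left 17468 features and 14 residual degrees of freedom. Log2 CPM used a prior count of 2. A standard error is the size of the log2 fold change over the root of its F statistic. P-values were adjusted over all tested features by the Benjamini-Hochberg method, at a threshold of 0.05. DESeq2 1.42.0, other filters, scaling, references and left-out libraries were alternatives.

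The members, the wider list and the tests were chosen with earlier results of these data known. The genes named besides the members were, from the wider list, the 4 raised and the 4 lowered genes that changed most at 1000 µM among those past the threshold and averaging 1 CPM or more, a set of partners, and the 5 genes most like the leading member. Other genes of that list are named to describe a group. In simulated data for 1000 against 0 µM on the real genes, 88.6% of 396 genes changed 4-fold were recovered. Of those changed 2-fold 62.1% of 391 were recovered, and of those changed 1.5-fold 26.0% of 396. Smaller changes were thus often missed in the simulations. Each simulation changed 200 genes, far fewer than the 41.2% of features that passed in the real comparison, so the rates may differ there. Between replicate libraries a chi-square statistic per gene ran from 5.49 to 208 over 21 pairs, so no pair was 1 library deposited again.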

Additional observations from a re-analysis of the deposited data

How the results depend on the processing

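At 1000 µM NR1H4, CYP8B1 and SLC51A were called under each alternative run for that comparison, including the pooled reference, where the count of members was 3 or 4. In the main fit 3 members and 23 of the 46 tested genes of the wider list had a slope, where 29.0% of all features had one. For the settings that follow, that share was not computed. At an adjusted p under 0.01 the members with a slope were 1 and the genes of the wider list with a slope 15. Without the 1000 µM libraries these counts were 0 (edgeR, and also 0 at an unadjusted p under 0.05) and 4, and without the 0 µM libraries the wider list had 12. With only the 6 libraries of 0 and 10 µM 1 member passed at 10 µM. The lower counts at the stricter threshold follow from that threshold. For the other settings the cause was not tested. Leaving out 1 library at a time gave 1 to 4 members with a slope, where 3 had one. The sign turned for ABCB4 against the pooled 0.01, 0.1 and 1 µM libraries (-0.0156), for its slope on the linear dose (-0.0112) and without 0 µM (-8.84e-05), and for the slope of NR0B2 without 1000 µM (-0.0046). None of these values passed. With the replicate number as a block 3 members were called at 1000 µM, 3 had a slope and 2 differed among the groups, and the block changed no call of a member. Same-numbered libraries of different doses had a median correlation of deviations of 0.0199, 11 of 63 pairs were over 0.1 and 5 of 21 libraries were closest to their own number, so the numbers were not taken to pair the samples. Counts of at most 8 per library limit FGF19, ABCB11, CYP7A1 and CYP7B1.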
